A study of Mus musculus with 6 samples.

Results

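Small nucleolar RNA host genes are long non-coding genes whose introns carry small nucleolar RNAs (snoRNAs). The 8 host genes described here, Gas5, Snhg1, Snhg3, Snhg5, Snhg6, Snhg8, Snhg11 and Snhg12, were taken by name from the array's gene annotation. In it 22180 genes have a probe of their own symbol, among them 6 of the 8. The probes of Gas5 and Snhg8 also carry a second symbol. Livers came from male C57BL/6 mice given Vascepa for 7 days and then fed a high-fat diet for 6 weeks (3 arrays), or given vehicle for 7 days and then the same diet for 6 weeks (3 arrays). Vascepa is icosapent ethyl, a purified ester form of eicosapentaenoic acid, an omega-3 fatty acid of fish oil. The mice were 8 weeks old before a period of acclimatization, no genetic change is labelled, and all 6 livers had the high-fat diet. Whether the 3 samples of a group were separate animals is not labelled, and the p-values therefore rest on a spread between samples that could be technical alone.

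A host gene makes 2 kinds of product from 1 transcript. The spliced exons form a long RNA that codes for no known protein and is, for several hosts, destroyed by nonsense-mediated decay. The introns are opened by a debranching enzyme and trimmed to snoRNAs, where box C/D snoRNAs guide ribose methylation and box H/ACA snoRNAs guide pseudouridylation of ribosomal and other RNAs. Many hosts belong to the terminal oligopyrimidine class, whose RNAs begin with a C followed by a run of C and T and whose fate follows cell growth. A probe on the exons and a probe on a snoRNA therefore read separate products of the same transcription, and setting them side by side asks whether snoRNA signal and host signal vary alike.

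The start sites of the host genes were compared as sequence, to show which letters the members share there. RefSeq start sites in GRCm38.p6 were available for 7 of the 8 members, at 8 positions, since Gas5 has 2. The letters TATA, which read the same on both strands and can overlap themselves, were searched between 45 and 16 bases before the start. They were found at 5 of 8 member start sites, against 6.72% of all 32851 start sites in the table, 1 of 12 in the other long non-coding hosts and 1 of 17 in protein-coding hosts. A C followed by 4 bases that are each C or T, beginning between 2 bases before the start and the third base of the transcript, was searched on the transcribed strand only. It was found at 4 of 8 member start sites, against 8.96% of all start sites, 2 of 12 in the other long non-coding hosts and 3 of 17 in protein-coding hosts. These searches were chosen after the sequences had been seen, and a match describes letters, not a working site. The stretches below run from 50 bases before the start through 30 bases of transcript, with every TATA in capitals, and all 8 are shown so that start sites with and without it can be compared.
Gas5, second start, chr1:161035116-161035195, plus strand: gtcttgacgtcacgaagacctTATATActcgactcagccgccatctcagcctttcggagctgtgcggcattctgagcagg
Snhg1, chr19:8723437-8723516, plus strand: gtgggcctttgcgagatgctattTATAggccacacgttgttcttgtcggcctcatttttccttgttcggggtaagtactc
Snhg5, chr9:88522868-88522947, minus strand: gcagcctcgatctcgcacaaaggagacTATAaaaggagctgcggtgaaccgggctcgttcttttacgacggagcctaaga
Snhg8, chr3:123508307-123508386, minus strand: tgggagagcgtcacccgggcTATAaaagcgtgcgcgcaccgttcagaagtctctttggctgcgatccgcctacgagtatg
Snhg12, chr4:132308628-132308707, plus strand: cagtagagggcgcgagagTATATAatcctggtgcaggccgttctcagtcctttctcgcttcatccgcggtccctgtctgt
Snhg3, chr4:132353657-132353736, minus strand: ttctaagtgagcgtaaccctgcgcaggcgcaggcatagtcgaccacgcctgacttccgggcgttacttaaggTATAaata
Snhg11, chr2:158375663-158375742, plus strand: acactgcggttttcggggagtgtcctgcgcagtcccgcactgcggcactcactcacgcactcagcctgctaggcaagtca
Gas5, first start, chr1:161034551-161034630, plus strand: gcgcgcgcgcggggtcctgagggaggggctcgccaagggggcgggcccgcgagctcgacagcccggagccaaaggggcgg
In the first 5 stretches the TATA begins 23 to 32 bases before the annotated start. In Snhg3 it begins at base 23 of the annotated transcript, and neither Snhg11 nor the first start of Gas5 has one in the stretch shown. The pyrimidine run was met in Gas5 (second start), Snhg3, Snhg8 and Snhg12.

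Liver gene expression was read on 6 arrays. The general hepatocyte markers were bright, with 17 of 17 named genes above the intensity filter of 2.65 on the log2 scale and a median level of 11.7, and among the other cell types searched the median marker level was at most 6.23. Across genes, Pearson's r between any 2 arrays was 0.906 to 0.986. Vascepa replicate 3 stood apart from the rest, with a mean r of 0.938 against 0.959 to 0.973 for the other arrays. The mean level of 75 snoRNA probes was 5.42, 6.48 and 7.01 on Vascepa replicates 1, 2 and 3, and 5.57, 6.36 and 5.79 on vehicle replicates 1, 2 and 3. The arrays numbered 1 were thus lowest in snoRNA signal in both groups. For the hosts and the snoRNAs nested in them, results that rest on Vascepa replicate 3 are given without it below. Results for the other lists are given with all 6 arrays only, and some of them may rest on that array too. The part of RNA recovery, RNA quality or cell content in any of the values below was not tested.

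With all arrays weighted equally, no host gene passed between Vascepa and vehicle livers at a p under 0.05, adjusted or not (limma). With estimated array weights, which gave Vascepa replicate 2 a weight of 39.5 and no other array more than 2.33, Snhg1 and Snhg12 passed at an adjusted p under 0.05, as did 30.4% of all genes tested. In whole liver, fewer cells of a type and less RNA per cell cannot be told apart. In all 8 the groups overlapped, as they did in most genes, since 8.24% of the 13493 genes tested had groups that did not overlap. Snhg5 overlapped only through a value of 3.32 found in both groups. None of the 8 passed at an adjusted p under 0.05 and none at an unadjusted p under 0.05 (limma). Over all 13493 genes 0 passed at an adjusted p under 0.05 and 362, or 2.68%, at an unadjusted p under 0.05, 141 of them higher and 221 lower in Vascepa livers. With each array centred on its median the unadjusted split was 65 higher and 319 lower. The Gas5 and Snhg8 probes also carry a second gene symbol, so both are reported apart, from a fit over all 41345 probes in which 0 passed at an adjusted p under 0.05 and 3.72% at an unadjusted p under 0.05.

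**Figure D1:**
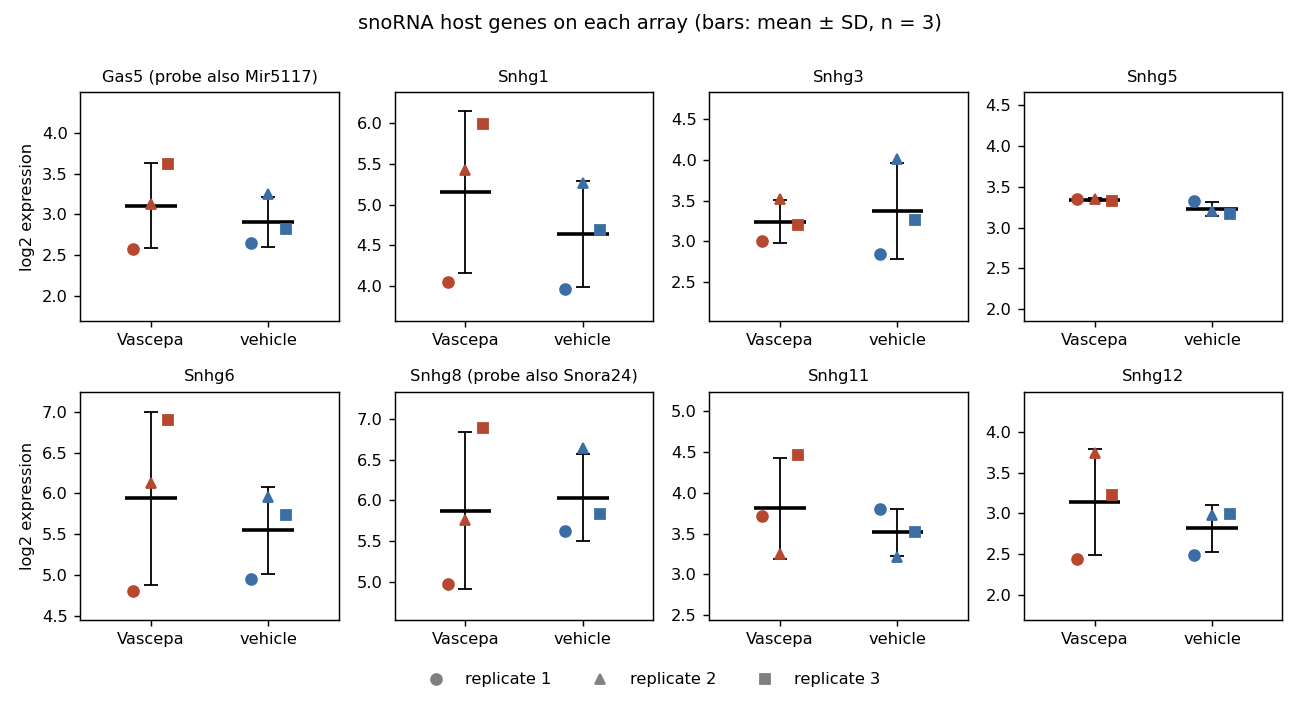
Log2 expression of the 8 host genes on each array, Vascepa left and vehicle right, with mean ± SD (n = 3 each); all panels span an equal log2 range. In 6 of 8 panels the circles of replicate 1 are the lowest point of both groups, and Snhg5 is nearly flat.

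Snhg1 carries a series of box C/D snoRNAs and was the host with the widest gap between group means. It read 4.05, 5.43 and 5.98 on Vascepa replicates 1, 2 and 3, against 3.97, 5.26 and 4.69 on vehicle replicates 1, 2 and 3. The low arrays of both groups lay side by side, and the highest value was on Vascepa replicate 3. Snhg1 averaged 5.15 ± 0.99 in Vascepa livers and 4.64 ± 0.65 in vehicle livers (SD, n = 3 each). The log2 difference was 0.51 ± 0.51 (SE), with a 95% interval of −0.67 to 1.70 (limma, adjusted p = 0.976). Without Vascepa replicate 3 the difference was 0.10, and with array weights it was 0.78 (limma, adjusted p = 0.0165).

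Snhg6, the host of Snord87, was ordered between arrays much like Snhg1. It read 4.80, 6.13 and 6.90 on the Vascepa arrays, against 4.94, 5.96 and 5.73 on the vehicle arrays. Vascepa livers held both the lowest and the highest of the 6 values. Snhg6 averaged 5.94 ± 1.06 in Vascepa livers and 5.54 ± 0.53 in vehicle livers (SD, n = 3 each), a log2 difference of 0.40 ± 0.51 (SE) with a 95% interval of −0.79 to 1.59 (limma, adjusted p = 0.976). Without Vascepa replicate 3 the difference turned to −0.08.

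Gas5, named for its rise in growth-arrested cells and known in human cells as a decoy that binds the glucocorticoid receptor, also hosts box C/D snoRNAs. Its probe is shared with Mir5117 in the annotation, so its values may hold either. It read 2.57, 3.13 and 3.62 on the Vascepa arrays, against 2.65, 3.25 and 2.82 on the vehicle arrays. Gas5 averaged 3.11 ± 0.53 in Vascepa livers and 2.91 ± 0.31 in vehicle livers (SD, n = 3 each). The difference was 0.20 ± 0.30 (SE), with an interval of −0.51 to 0.91 (limma over all probes, adjusted p = 0.979), and −0.06 without Vascepa replicate 3.

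Snhg5, host of the U50 type of box C/D snoRNA, was the flattest member. It read 3.36, 3.35 and 3.32 on the Vascepa arrays, against 3.32, 3.20 and 3.16 on the vehicle arrays. The highest vehicle value equalled the lowest Vascepa value. Snhg5 averaged 3.34 ± 0.017 in Vascepa livers and 3.23 ± 0.083 in vehicle livers (SD, n = 3 each), a log2 difference of 0.11 ± 0.16 (SE; limma, adjusted p = 0.976). Its SD within groups was 0.060, and 0.800% of tested genes had a smaller one. The difference of 0.11 thus exceeded Snhg5's own SD within groups. The SE of 0.16 is larger than that SD because limma draws the SD of each gene toward that of the other genes.

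Snhg3, host of Snora73a and Snora73b, box H/ACA RNAs that act in processing of ribosomal RNA, was 1 of 2 members with a lower mean in Vascepa livers. It read 3.00, 3.52 and 3.20 on the Vascepa arrays, against 2.84, 4.01 and 3.26 on the vehicle arrays. Vehicle replicate 2 was the highest and vehicle replicate 1 the lowest, so the vehicle group enclosed the Vascepa group. Snhg3 averaged 3.24 ± 0.26 in Vascepa livers and 3.37 ± 0.59 in vehicle livers (SD, n = 3 each). The difference was −0.13 ± 0.31 (SE), with an interval of −0.85 to 0.59 (limma, adjusted p = 0.976), and it was 0.19 without vehicle replicate 2.

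Snhg8, the other member with a lower mean, shares its probe with Snora24, the box H/ACA snoRNA inside it, so host and snoRNA cannot be told apart there. It read 4.98, 5.76 and 6.89 on the Vascepa arrays, against 5.63, 6.64 and 5.83 on the vehicle arrays. Vascepa livers again held the lowest and the highest value. It averaged 5.88 ± 0.96 in Vascepa livers and 6.03 ± 0.54 in vehicle livers (SD, n = 3 each), a difference of −0.16 ± 0.50 (SE) with an interval of −1.32 to 1.01 (limma over all probes, adjusted p = 0.982). The sign turned without Vascepa replicate 1, to 0.29, and without vehicle replicate 2, to 0.15. Without Vascepa replicate 3, where Snhg8 was highest, the difference was −0.67.

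Snhg11, a host best known from neurons, had 2 probes that disagreed. The brighter read 3.71, 3.25 and 4.46 on the Vascepa arrays, against 3.80, 3.22 and 3.52 on the vehicle arrays. The other read 2.55, 3.13 and 2.87 on the Vascepa arrays, against 3.11, 3.27 and 2.83 on the vehicle arrays. The brighter probe was high where the other was low on Vascepa replicates 1 and 3. Their differences had opposite signs, 0.29 ± 0.32 (SE; limma, adjusted p = 0.976) and −0.22 ± 0.22 (SE; limma over all probes, adjusted p = 0.979). Without Vascepa replicate 3 the brighter probe's difference was −0.03. The brighter probe averaged 3.81 ± 0.61 in Vascepa livers and 3.51 ± 0.29 in vehicle livers (SD, n = 3 each).

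Snhg12 carries both classes, Snora16a, Snora44 and Snora61 of the H/ACA class and Snord99 of the C/D class. It read 2.44, 3.74 and 3.23 on the Vascepa arrays, against 2.49, 2.98 and 2.99 on the vehicle arrays. Unlike most members it was highest on Vascepa replicate 2, and the arrays numbered 1 were again the lowest. Snhg12 averaged 3.14 ± 0.65 in Vascepa livers and 2.82 ± 0.29 in vehicle livers (SD, n = 3 each), a difference of 0.32 ± 0.33 (SE) with an interval of −0.45 to 1.09 (limma, adjusted p = 0.976). Without Vascepa replicate 2 the difference was 0.017, and with array weights, which rest mainly on that array, it was 0.84 (limma, adjusted p = 0.00605).

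**Figure D2:**
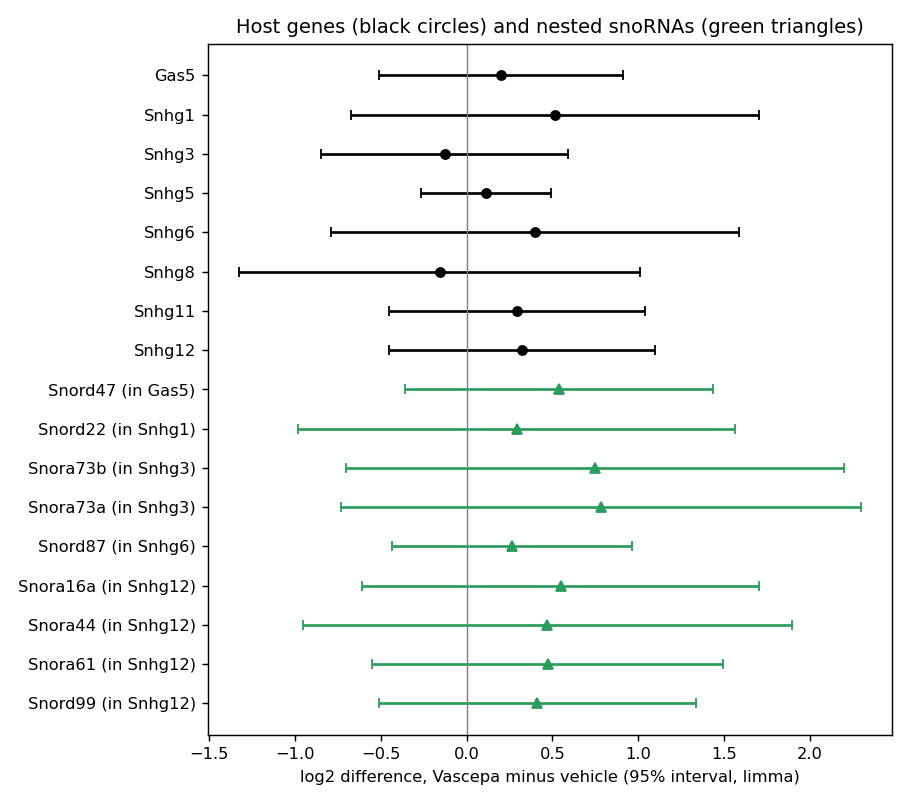
Log2 difference, Vascepa minus vehicle, for the 8 host genes (black circles) and the 9 snoRNAs nested in them that have a probe of their own (green triangles), with limma's 95% interval. Every interval includes 0, and the 9 snoRNA points all lie right of 0 while Snhg3 and Snhg8 lie left of it.

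Some of the hosts shared an order of the arrays. The 6 arrays differ in treatment and may differ in RNA preparation as well. Over them, Pearson's r with the mean standardised profile of the other single-symbol members was 0.935 for Snhg1, 0.885 for Snhg6 and 0.675 for Snhg12. For Snhg3, Snhg5 and Snhg11 it was 0.157, −0.092 and 0.015, so these 3 did not follow the others. Gas5 and Snhg8, set against the mean of all 6, had an r of 0.937 and 0.722. In 6 of 8 members, all but Snhg5 and Snhg11, the 2 arrays numbered 1 lay below the other 4. This order held in 14.8% of the 13493 genes tested and in 46 of 75 snoRNA probes, or 61.3%. In 5 of 8 members, Gas5, Snhg1, Snhg6, Snhg8 and Snhg11, Vascepa replicate 3 was the highest array, against 23.0% of genes tested and 74.7% of snoRNA probes. Snhg11 is counted there by its brighter probe, and its other probe was highest on vehicle replicate 2. The counts were again 6 and 5 when each array was centred on its median, with 11.5% and 14.6% of genes, and when the arrays were quantile-normalized again, with 15.7% and 26.4%. These orders were chosen for counting after the values had been seen. Seen against the spread of other genes, Snhg1, Snhg6 and Snhg8 were among the more variable within groups, with pooled SDs of 0.839, 0.839 and 0.781 against a median of 0.290 over the genes tested. The median over the members was 0.493, and over the 75 snoRNA probes it was 0.773.

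The median log2 difference of the 6 members with a probe of their own was 0.31, against −0.06 over all genes tested. With Gas5 and Snhg8 added it was 0.25. Of the 8 members 6 had a higher mean in Vascepa livers, while 39.9% of all genes tested did. Snhg11 is counted among the 6 by its brighter probe, and its other probe had a lower mean. The median of the 6 rested on Vascepa replicate 3, without which it was 0.03, and it was 0.50 without Vascepa replicate 1 and 0.16 without vehicle replicate 1. With the mean snoRNA level of each array as a covariate it was 0.05.

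The reference gene table places 28 snoRNA genes within the 8 hosts, and 9 of them, in 5 hosts, have a probe with no other symbol. All 9 had a higher mean in Vascepa livers, with a median log2 difference of 0.47, close to the 0.43 of all 75 snoRNA probes, of which 85.3% were higher. None of the 9 passed at an unadjusted p under 0.05, and in all 9 the groups overlapped. Vascepa replicate 3 was highest in 9 of 9, and without it the median was 0.02. Levels of different probes cannot be set against each other, so each array is given below as its log2 deviation from the vehicle mean of the same probe. The Gas5, Snhg3 and Snhg12 probes were dim, at means of 3.01, 3.31 and 2.98 over the 6 arrays. The filter level was 2.65, and the 9 snoRNA probes averaged 6.79 to 10.5. RMA, the method that made the values, compresses differences of dim probes. Its part in the gaps between host and snoRNA below was not tested.

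Snord22 followed its host Snhg1 closely, and so did the mean of all snoRNA probes. Snord22 lay at −0.95, 0.53 and 1.30 on Vascepa replicates 1, 2 and 3, and at −0.45, 0.65 and −0.19 on vehicle replicates 1, 2 and 3. Snhg1 lay at −0.59, 0.79 and 1.34 on the Vascepa arrays and at −0.67, 0.62 and 0.05 on the vehicle arrays. Both were low on the arrays numbered 1 and highest on Vascepa replicate 3, and the deviation of the snoRNA minus that of the host ran from −0.36 to 0.22 over the 6 arrays. The snoRNA's group difference minus the host's was −0.22 (exact permutation test over 6 arrays, two-sided p = 0.2, adjusted p = 0.5 over 5 hosts). The mean of all snoRNA probes lay at −0.49, 0.57 and 1.10 on the Vascepa arrays. On the vehicle arrays it lay at −0.34, 0.46 and −0.12. Whether Snord22 followed Snhg1 more closely than snoRNAs from outside this host did was not tested.

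Snord47 and Gas5 also kept the same order on most arrays. Snord47 lay at −0.16, 0.60 and 1.18 on the Vascepa arrays and at −0.42, 0.60 and −0.18 on the vehicle arrays. Gas5 lay at −0.34, 0.22 and 0.71 on the Vascepa arrays and at −0.26, 0.34 and −0.09 on the vehicle arrays. The snoRNA's excursions were the larger on the high arrays, and its group difference exceeded the host's by 0.34 (exact permutation test, p = 0.2, adjusted p = 0.5). For Snhg6 the host deviated further than its snoRNA on every array but vehicle replicate 3. Snord87 lay at −0.28, 0.32 and 0.75 on the Vascepa arrays and at −0.13, 0.40 and −0.26 on the vehicle arrays. Snhg6 lay at −0.75, 0.58 and 1.35 on the Vascepa arrays and at −0.60, 0.41 and 0.19 on the vehicle arrays. The difference between their group differences was −0.13 (exact permutation test, p = 0.7, adjusted p = 0.8).

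Snhg3 and its snoRNAs parted on Vascepa replicate 3. Snora73a lay at −0.70, 0.96 and 2.09 on the Vascepa arrays and at −0.53, 0.71 and −0.18 on the vehicle arrays. Snora73b, its near-identical copy, lay at −0.69, 0.91 and 2.02 on the Vascepa arrays and at −0.42, 0.63 and −0.21 on the vehicle arrays, and each probe may bind RNA of the other copy. Snhg3 lay at −0.37, 0.15 and −0.17 on the Vascepa arrays and at −0.53, 0.64 and −0.11 on the vehicle arrays. The mean deviation of the snoRNAs minus that of the host was −0.33, 0.79 and 2.22 on Vascepa replicates 1, 2 and 3, and it lay between −0.08 and 0.05 on the vehicle arrays. The group difference of the snoRNAs exceeded that of the host by 0.89, and the groups of this quantity overlapped (exact permutation test, p = 0.4, adjusted p = 0.667). Without Vascepa replicate 3 it was 0.23, and without Vascepa replicate 1 it was 1.50.

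The 4 snoRNAs of Snhg12 kept the same order over the Vascepa arrays but not over the vehicle arrays. On Vascepa replicates 1, 2 and 3 Snora44 lay at −0.96, 0.90 and 1.47, Snora16a at −0.63, 0.67 and 1.61, Snora61 at −0.58, 0.63 and 1.37, and Snord99 at −0.29, 0.66 and 0.87. On vehicle replicates 1, 2 and 3 Snora44 lay at −0.55, 0.77 and −0.22, Snora16a at −0.13, 0.27 and −0.14, Snora61 at 0.23, −0.13 and −0.10, and Snord99 at −0.61, 0.66 and −0.05. Snora61 was the only one of the 4 that was higher on vehicle replicate 1 than on vehicle replicate 2. Snhg12 itself lay at −0.37, 0.93 and 0.41 on the Vascepa arrays and at −0.33, 0.16 and 0.17 on the vehicle arrays. The mean deviation of its snoRNAs minus that of the host was 0.92 on Vascepa replicate 3 and −0.21 on Vascepa replicate 2. The difference between group differences was 0.16 (exact permutation test, p = 0.8, adjusted p = 0.8), and −0.23 without Vascepa replicate 3. With 3 arrays against 3 the smallest p this test can give is 0.1, so none of these 5 comparisons could pass at 0.05.

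**Figure D3:**
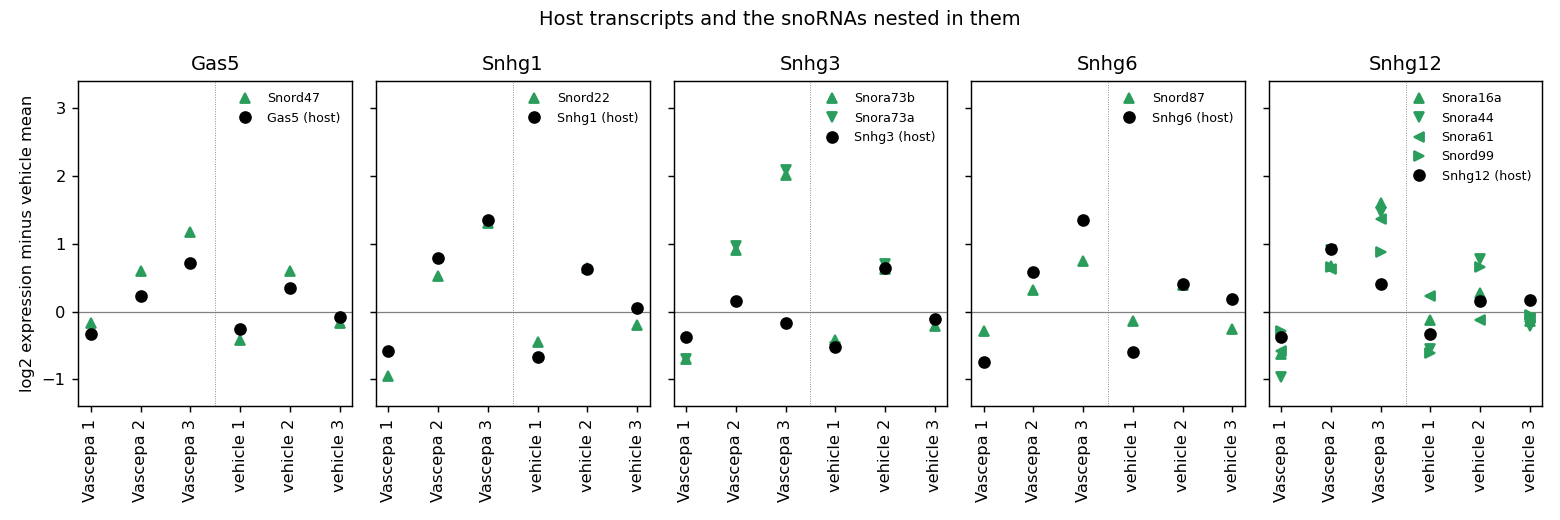
Log2 expression minus the vehicle mean of the same probe, for 5 host transcripts (black circles) and the snoRNAs nested in them (green triangles), on the 3 Vascepa and 3 vehicle arrays. Host and snoRNA symbols nearly coincide for Snhg1 and part for Snhg3 on Vascepa replicate 3, where the snoRNAs lie at 2.02 and 2.09 and the host at −0.17. The Snhg3 probe is dim, with a mean of 3.31 over the 6 arrays.

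Other long non-coding hosts showed the same order of arrays in part. Of 13 listed 9 were tested, 6 with a higher and 3 with a lower Vascepa mean and a median difference of 0.22, and 0 passed (limma, adjusted p under 0.05, or unadjusted p under 0.05). The median deviation of these 9 genes from the vehicle mean was −0.24, 0.26 and 0.40 on the Vascepa arrays, against −0.19, 0.28 and −0.09 on the vehicle arrays. Snhg17, a host of H/ACA snoRNAs, had the smallest p. It read 6.95, 8.60 and 9.47 on the Vascepa arrays, against 7.24, 8.44 and 7.16 on the vehicle arrays, a difference of 0.73 ± 0.63 (SE; limma, adjusted p = 0.976). Epb41l4aos differed by 0.37 ± 0.34 (SE; limma, adjusted p = 0.976). By contrast Snhg18 differed by −0.0043 ± 0.18 (SE) and Dancr, host of an H/ACA snoRNA, by −0.0067 ± 0.22 (SE).

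Protein-coding hosts, most of them ribosomal protein or translation factor genes, lay likewise. All 17 with a probe of their own of 23 listed were tested, 11 higher and 6 lower, with a median of 0.09 and 0 past either threshold (limma). Their median lay at −0.39, 0.22 and 0.53 on the Vascepa arrays and at −0.13, 0.27 and −0.03 on the vehicle arrays. Nop56, both a host and a core protein of box C/D particles, read 4.91, 5.77 and 6.60 on the Vascepa arrays, against 4.97, 5.42 and 4.86 on the vehicle arrays. It differed by 0.67 ± 0.40 (SE; limma, adjusted p = 0.976). Eef2, the translocation factor of the ribosome, lay on the other side at −0.37 ± 0.28 (SE; limma, adjusted p = 0.976), with 9.55 on Vascepa replicate 3.

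With all 6 arrays, the proteins that make and protect snoRNAs had median differences nearer 0 than the 0.31 of the 6 members with a probe of their own. The median of the protein-coding hosts, 0.09, was nearer 0 than that of either list of these proteins. The 0.31 rested on Vascepa replicate 3, without which it was 0.03. No values of the protein lists without that array are given here. Of 8 core proteins of box C/D and box H/ACA particles 7 were tested, 5 higher and 2 lower, with a median of 0.14. Beside Nop56, Nop58, its partner in box C/D particles, differed by 0.19 ± 0.21 (SE; limma, adjusted p = 0.976). All 11 assembly and debranching factors were tested, 5 higher and 6 lower, with a median of −0.11. Shq1, a chaperone of the H/ACA enzyme, and Pih1d1, of a complex that assembles box C/D particles, differed by 0.35 ± 0.23 and −0.28 ± 0.19 (SE; limma, adjusted p = 0.976 for each). Dbr1, the enzyme that opens intron lariats, differed by −0.23 ± 0.22 (SE; limma, adjusted p = 0.976). No gene of these lists passed at an adjusted or an unadjusted p under 0.05.

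Factors of nonsense-mediated decay, which degrades spliced host RNAs such as Gas5, were mostly lower in Vascepa livers, by less than the spread within the groups. Of 10 listed 7 were tested, 1 higher and 6 lower, with a median of −0.19 and 0 past either threshold (limma). Of all genes tested, 39.9% were higher. The median of the 7 factors lay at 0.20, −0.05 and −0.87 on the Vascepa arrays and at 0.22, −0.25 and 0.03 on the vehicle arrays. On Vascepa replicate 1 it lay above the vehicle mean. The lower means thus leaned on Vascepa replicate 3, and no value without that array is given here. The arrays lowest in these factors, Vascepa replicate 3 and vehicle replicate 2, were the highest of their group in snoRNA level. Lists unrelated to the pathway took a like course. The median of stellate cell markers lay at 0.15, −0.16 and −0.45 on the Vascepa arrays and at 0.05, −0.09 and 0.01 on the vehicle arrays. That of sinusoidal endothelial markers lay at 0.11, −0.14 and −0.35 on the Vascepa arrays and at 0.13, −0.10 and −0.05 on the vehicle arrays. Upf1, the helicase at the centre of the pathway, read 5.48, 4.96 and 3.79 on the Vascepa arrays, against 5.35, 4.28 and 5.17 on the vehicle arrays. Smg6, the endonuclease, and Upf2 differed by −0.35 ± 0.29 and −0.35 ± 0.36 (SE; limma, adjusted p = 0.976 for each).

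**Figure D4:**
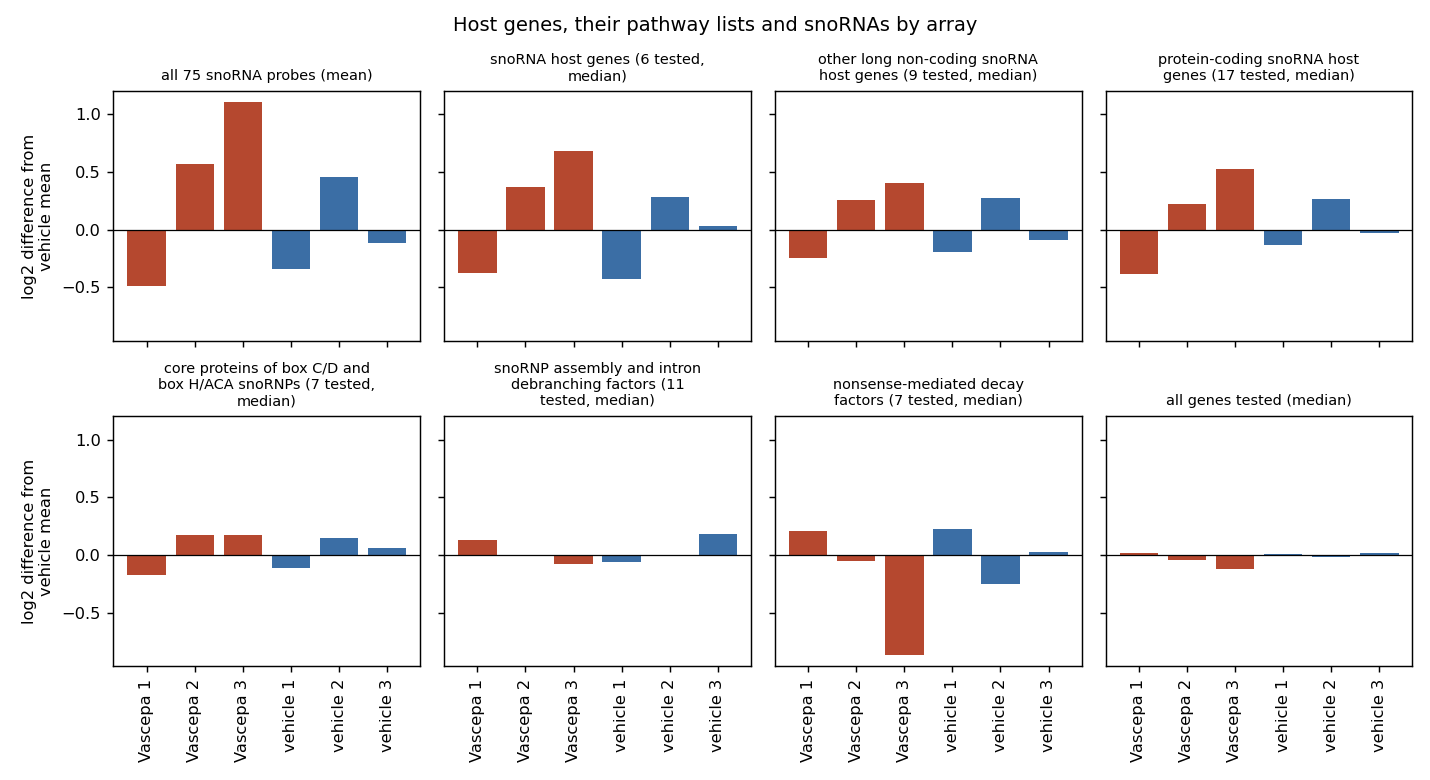
Median log2 difference from the vehicle mean on each array for the host genes and 5 related lists, with the mean of 75 snoRNA probes and the median of all genes tested, Vascepa bars red and vehicle bars blue. In every upper panel the arrays numbered 1 are the lowest and Vascepa replicate 3 is the highest, and nonsense-mediated decay factors lie at −0.87 on Vascepa replicate 3.

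Among the 13487 tested genes that are not members, those most like the mean host profile were in part snoRNAs. Likeness was Pearson's r over the 6 arrays with the mean of the 6 standardised member profiles, a mean that Snhg1, Snhg6 and Snhg12 follow and Snhg3, Snhg5 and Snhg11 do not. The 5 highest were Snora21 at 0.998, Gkap1 at 0.994, Snord71 at 0.993, Znhit1 at 0.993 and Tmem141 at 0.992. Of 67 snoRNA genes tested 42 had an r over 0.9, against 4.39% of all genes compared. Snora21 read 7.06, 8.46 and 8.91 on the Vascepa arrays, against 7.14, 7.92 and 7.34 on the vehicle arrays.

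With the mean snoRNA level of each array held constant, no host passed at an adjusted p under 0.05. Snhg8, 1 of 8 members at an unadjusted p under 0.05, had a difference of −0.62 ± 0.20 (SE; limma over all probes, unadjusted p = 0.0198, adjusted p = 0.973). In these fits 4.83% of all probes and 6.11% of the genes tested had an unadjusted p under 0.05. For Snhg1 the difference became 0.0079 ± 0.18, for Snhg6 −0.10 ± 0.19, for Gas5 −0.06 ± 0.15 and for Snhg12 0.09 ± 0.24 (SE). For Snhg3, Snhg5 and Snhg11 it was −0.30 ± 0.25, 0.13 ± 0.16 and 0.24 ± 0.30 (SE). The SE of Snhg1 and Snhg6 was 0.51 without this term. The covariate is itself made from snoRNA probes of the same arrays, and Snora24, which it does not include, shares the Snhg8 probe.

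Single markers of other cell types differed by as much as the hosts or more, though none passed after adjustment. Before adjustment, 3 of 13 Kupffer cell and macrophage markers and 1 of 5 skeletal muscle markers, Acta1 (limma, unadjusted p = 0.0178), had a p under 0.05, against 2.68% of all genes tested and none of the hosts. The other marker lists had 0 at that level. Kupffer cell and macrophage markers were lower in 11 of 13 tested genes, with Vsig4 and Cd68 at −0.53 ± 0.18 and −0.54 ± 0.20 (SE; limma, adjusted p = 0.976 for each). Their summed level was 9.79 to 10.5 on the Vascepa arrays and 10.3 to 10.5 on the vehicle arrays, on the log2 scale. Skeletal muscle markers were higher in 4 of 5 tested genes, with a median of 0.41, above the 0.31 of the hosts, and with Acta1 and Mb at 0.52 ± 0.18 and 0.41 ± 0.21, and pancreatic acinar markers in 4 of 4, with Clps and Ctrb1 at 0.52 ± 0.25 and 0.29 ± 0.21 (SE; limma, adjusted p = 0.976 for each). The summed levels of muscle and acinar markers were 6.35 to 6.49 and 6.17 to 6.31 on the Vascepa arrays. On the vehicle arrays they were 6.08 to 6.23 and 5.92 to 6.25, so the groups did not overlap for muscle. Among all genes tested, 8.24% had groups that did not overlap. These sums take in all named genes, of which only 5 of 10 for muscle and 4 of 9 for acinar cells were above the filter level. The brightest muscle marker had a mean of 4.35, so the sums are of dim probes. Carry-over of muscle into the samples was not tested. Hepatocyte markers were lower in 14 of 17, with Hpx and Serpinc1 at −0.33 ± 0.18 and −0.24 ± 0.20. Sinusoidal endothelial markers were lower in 8 of 10, with Pecam1 and Oit3 at −0.43 ± 0.20 and −0.44 ± 0.39, and stellate cell markers in 7 of 9, with Hand2 and Col3a1 at −0.46 ± 0.23 and −0.28 ± 0.21. Lymphocyte and neutrophil markers were lower in 7 of 7, with Cd3e and Ptprc at −0.46 ± 0.25 and −0.29 ± 0.24, and cholangiocyte markers in 1 of 4, with Sox9 and Krt7 at −0.43 ± 0.34 and 0.30 ± 0.30 (SE, none passed).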

How the data were processed

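The authors deposited log2 expression values, 1 per probe (transcript cluster) and array, made with Affymetrix Expression Console and RMA per the submitters' processing notes; versions and genome build: not given in the sources used here. The method compresses differences of dim probes. Of 41345 probes 23521 had 1 gene symbol, 1814 several and 16010 no entry, and 23328 symbols were updated by gene ID through RefSeq GRCm38.p6. That table has no strand, so snoRNAs were assigned to hosts by span alone. No scan dates were used, so batches could not be tested.

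Vascepa minus vehicle was fitted with limma 3.58.1 in R 4.3.3, with Benjamini-Hochberg adjustment, over the 13493 genes whose brightest single-symbol probe reached the median mean level of all probes (2.65). Host and snoRNA were compared by exact permutation. The named genes were all members, their nested snoRNAs, the 2 members with the smallest p of each other list, and the 5 most like profiles; other names were chosen after their values were seen. Members and lists were chosen with earlier results of these data known. On 10 simulated data sets of 13493 genes with 200 changed, 35.3% of changes of 1 log2 unit and 97.6% of changes of 2 were recovered. The number of arrays limits the precision. Replicate numbers were not taken as pairs in the main fit. Deviations of same-numbered arrays correlated at 0.606, 0.108 and −0.129, and those of differently numbered arrays at −0.634 to 0.573. The arrays numbered 1 had the highest value, and whether they shared a batch could not be tested.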

Additional observations from a re-analysis of the deposited data

How the results depend on the processing

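The count of 0 genes at an adjusted p under 0.05 held without each array in turn (0 to 0), with centring, quantile normalization, the trended prior, the replicate block and other filters. Array weights gave 4100 and the snoRNA covariate 3, Cyp2b13, Cyp2b9 and Orm3. The weight of Vascepa replicate 2 was 39.5, and the next largest, of vehicle replicate 3, was 2.33; there Snhg1 was 0.78 and Snhg12 0.84 (limma, adjusted p = 0.0165 and 0.00605), Snhg3 turned to 0.23 and Snhg11 to −0.27. The 362 genes at an unadjusted p under 0.05 became 141 to 2018 when single arrays were left out (2018 and 221 with Vascepa replicate 1 or 2 omitted, 198 and 141 with vehicle replicate 1 or 3 omitted), 757 without a filter, 106 at the 75th percentile filter, 5902 with array weights, 824 with the snoRNA covariate and 1537 over all probes. The cause was not tested, beyond fewer or more features tested with the filters.

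Leaving out single arrays gave ranges of 0.03 to 0.50 for the hosts' median, 0.02 to 1.00 for their snoRNAs' median, −0.0570 to 0.47 for Gas5, 0.10 to 1.07 for Snhg1, −0.39 to 0.19 for Snhg3, 0.08 to 0.16 for Snhg5, −0.0807 to 0.97 for Snhg6, −0.67 to 0.29 for Snhg8, −0.0342 to 0.57 for Snhg11 and 0.02 to 0.67 for Snhg12. With the snoRNA covariate Snhg6 and Gas5 turned to −0.10 and −0.0638. Snora or Snord minus host ranged from 0.25 to 0.47 for Gas5, −0.34 to −0.11 for Snhg1, 0.23 to 1.50 for Snhg3, −0.43 to 0.10 for Snhg6 (0.10 without Vascepa replicate 3 and 0.10 without vehicle replicate 1) and −0.23 to 0.35 for Snhg12. With the replicate block the hosts' median was 0.31, 438 genes had an unadjusted p under 0.05, and no call changed. Dim probes, among them Gas5, Snhg12, Snhg5 and Snhg3, limit what can be seen.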

Other observations

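Snhg5 had the same value, 3.32, on Vascepa replicate 3 and vehicle replicate 1 to every digit deposited. Such a repeat between arrays occurred in 904 of 41345 probes, or 2.19%.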
